A study of Mus musculus with 24 samples.

Results

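The 7 genes described here were listed for motile cilia and the wall of the ventricle: Dynlrb2, Ccdc153, Cfap126, Enkur, Foxj1, Hdc and Nnat. Whether Hdc and Nnat mark that wall in these samples was not tested. All 7 were taken as a list of names, chosen with earlier results of these data known. Every probe set of each was read, and the one of highest mean on the 24 arrays led. They are 7 of the 18193 genes that had a probe set with 1 gene symbol. Of the 7, 6 passed the filter on low values (a log2 value above 4 on at least 4 arrays) and were tested, and Foxj1 did not.

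The arrays measured RNA of the suprachiasmatic nucleus (SCN), the paired hypothalamic nucleus beside the third ventricle that holds the circadian clock. C57BL/6 mice, 8 weeks old when they arrived, lived without time cues under steady dim red light. They were given either 30 min of light, at a phase where it advances their rhythm, or a sham treatment, and their brains were taken after 3.5 h. Laser microdissection of haematoxylin-stained brain sections gave the ventral core, the central SCN and the dorsal shell, and the 3 regions and 2 treatments make 6 groups of 4 arrays. Each group has 2 arrays in each of 2 amplification and labelling batches, A (replicates 1 and 2) and B (replicates 3 and 4). All groups share the strain, the dim red light, the amplification and a bacterial ribosomal RNA carrier, and no group carries a transgene. Which arrays share an animal is not in the labels, so p-values measure only the spread between these samples. In such pieces of tissue, fewer cells of a type and less RNA per cell cannot be told apart.

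Motile cilia are the beating hairs of ependymal cells, which line the ventricles and move the cerebrospinal fluid. Each holds an axoneme of microtubules with dynein motors, and the transcription factor Foxj1, together with factors of the RFX family, switches on the genes that build it. Dynlrb2 encodes a light chain of the roadblock family that belongs to dynein complexes. Ccdc153 encodes a coiled-coil protein and is used as a marker of ependymal cells. Cfap126, also known as Flattop, helps to place basal bodies and cilia, and Enkur encodes an axonemal protein that binds calmodulin. Hdc encodes histidine decarboxylase, which makes histamine. Nnat encodes neuronatin, a small membrane protein of imprinted expression that is abundant in the brain, and its gene lies within an intron of Blcap.

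RFX factors bind a core written GTTGCC, and the promoters of the members that hold it are shown. In RefSeq, assembly GRCm38.p6, the 250 bases before a start were at hand for 6 of the 7 genes, and Foxj1 had none. The core was found in 3 of the 6, on the coding strand in each. The windows of Cfap126, which has several, and of Hdc and Nnat did not hold it. It began 51 bases before the start of Dynlrb2 (chr8:116504765-116505014, plus strand), 152 bases before that of Ccdc153 (chr9:44240427-44240676, plus strand) and 34 bases before that of Enkur (chr2:21205366-21205615, minus strand). The sequences run 5′ to 3′, with the core in capitals.
Dynlrb2: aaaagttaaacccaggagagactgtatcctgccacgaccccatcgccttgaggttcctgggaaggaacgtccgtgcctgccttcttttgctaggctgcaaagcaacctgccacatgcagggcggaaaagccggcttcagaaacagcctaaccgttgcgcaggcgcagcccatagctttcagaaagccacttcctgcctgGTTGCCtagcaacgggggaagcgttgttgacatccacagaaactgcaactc
Ccdc153: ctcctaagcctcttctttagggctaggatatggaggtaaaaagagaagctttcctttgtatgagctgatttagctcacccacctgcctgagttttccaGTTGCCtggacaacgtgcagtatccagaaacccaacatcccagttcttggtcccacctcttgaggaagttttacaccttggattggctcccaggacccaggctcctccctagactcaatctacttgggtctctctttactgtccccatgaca
Enkur: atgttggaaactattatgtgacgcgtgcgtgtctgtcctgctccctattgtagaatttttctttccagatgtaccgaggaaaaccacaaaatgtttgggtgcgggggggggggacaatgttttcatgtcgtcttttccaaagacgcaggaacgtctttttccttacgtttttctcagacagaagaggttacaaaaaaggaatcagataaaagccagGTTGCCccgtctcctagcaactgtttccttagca
Both strands were searched, and 10.4% of all 32851 windows of this length hold GTTGCC. Among windows of other motile cilia genes that were tested, 16 of 50 (32.0%) hold it. Counted by gene, as for the members, 15 of 43 do. Its variant GTTACC (6.06% of all windows) and the forkhead core GTAAACA (3.17%) were in none of the windows of the 6 genes. These matches describe letters and were not tied to the array values.

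Expression is given as the log2 values deposited by the authors, and the batches are not on 1 scale: array medians ran from 3.52 to 3.62 in A and from 4.81 to 5.07 in B. Values are therefore compared within a batch or with the batch as a term. Vasopressin (Avp) was higher in the dorsal than in the central SCN (log2 difference 1.87 ± 0.249, SE). Vasoactive intestinal peptide (Vip) was lower in the dorsal SCN (-2.88 ± 0.298). In central minus ventral, 2 of 8 tested genes of SCN neurons were higher and 0 lower. None of the 8, Vip included, was thus called higher in the ventral than in the central SCN. 1 array stood apart, replicate 4 of the dorsal pulsed group in batch B. Its Gapdh signal was 5.41 log2 units higher at the 3′ than at the 5′ probe set, against 0.887 to 1.07 on the other arrays of its batch. Its median correlation with them was 0.913, against 0.977 to 0.987. In batch A the Gapdh difference was larger than on those other arrays, at 2.02 to 3.28. The median correlations within batch A ran from 0.955, on central pulsed replicate 2, to 0.982. Results that rest on it are given with and without it.

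Dynlrb2, Ccdc153 and Cfap126 were higher in the dorsal SCN than in either other region. Against the central SCN, the log2 difference was 1.52 ± 0.199 (SE, 8 against 8 arrays) for Dynlrb2, 1.97 ± 0.301 for Ccdc153 and 1.11 ± 0.205 for Cfap126. Against the ventral SCN it was 1.01 ± 0.199, 1.59 ± 0.301 and 0.75 ± 0.205 in the same order. Enkur and Hdc were lower in the central than in the ventral SCN, and no difference between regions passed the test for Nnat. The adjusted p-values are from limma with Benjamini-Hochberg adjustment over 13494 genes, and a gene is called with an adjusted p under 0.05.

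Dynlrb2, the dynein light chain, gave the smallest p of the 6 genes in the dorsal against central comparison. In batch A the dorsal arrays read 4.90 and 4.79 after sham and 5.16 and 5.05 after the pulse, the central arrays 3.30, 3.94, 3.32 and 3.27, and the ventral arrays 4.08, 3.90, 4.11 and 4.10. In batch B the dorsal arrays read 5.38 and 4.99 after sham and 5.37 and 7.06 after the pulse, the central arrays 4.79, 4.14, 3.63 and 4.19, and the ventral arrays 5.20, 4.28, 4.63 and 4.35. All dorsal arrays lay above all central arrays of their batch, and in batch B the ventral sham array of replicate 3 reached into the dorsal range. The adjusted p was 2.47e-05 against the central and 0.00262 against the ventral SCN. The differences were 1.33 (adjusted p = 3.32e-06) and 0.82 (0.00105) without dorsal pulsed replicate 4. No fold is given, because all 4 central values of batch A were under 4.

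Ccdc153, the ependymal marker, had larger differences than the other members in both comparisons with the dorsal SCN. In batch A the dorsal arrays read 5.27 and 5.85 after sham and 5.75 and 5.87 after the pulse, the central arrays 4.09, 4.35, 3.27 and 3.29, and the ventral arrays 3.77, 3.21, 4.41 and 5.57. In batch B the dorsal arrays read 5.57 and 5.46 after sham and 5.72 and 6.77 after the pulse, the central arrays 4.04, 3.43, 3.97 and 4.04, and the ventral arrays 5.49, 3.79, 3.31 and 4.03. The dorsal and central arrays did not overlap in either batch. Single ventral arrays, pulsed replicate 2 at 5.57 and sham replicate 3 at 5.49, reached the dorsal range. The adjusted p was 0.000156 against the central and 0.00180 against the ventral SCN, and 0.000282 and 0.00368 without dorsal pulsed replicate 4. Ccdc153 exceeded the filter level on 16 of the 24 arrays. On ventral pulsed replicate 3 it read 3.31 (percentile 19.7 of all probe sets), and Foxj1 read 3.31 on the same array. The sizes of the Ccdc153 differences therefore rest in part on values near background.

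Cfap126, which helps to place cilia, differed less. In batch A the dorsal arrays read 4.71 and 4.61 after sham and 4.87 and 4.65 after the pulse, the central arrays 3.86, 4.35, 3.73 and 3.64, and the ventral arrays 4.37, 4.04, 4.21 and 4.15. In batch B the dorsal arrays read 6.02 and 5.79 after sham and 5.34 and 7.42 after the pulse, the central arrays 4.69, 4.61, 4.83 and 4.84, and the ventral arrays 5.53, 5.33, 4.99 and 4.76. Dorsal and central arrays did not overlap in either batch, while ventral sham replicate 3 lay above dorsal pulsed replicate 3. The difference from the central SCN had an adjusted p of 0.00112 and that from the ventral SCN 0.0333. The latter rose to as much as 0.0823 when any 1 of 8 arrays was left out, namely any of the 4 dorsal sham arrays but replicate 2, any ventral sham array but replicate 3, or ventral pulsed replicate 3 or 4. Leaving out dorsal pulsed replicate 4 lowered the differences to 0.88 (adjusted p = 3.91e-05) and 0.52 (0.00915).

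The differences kept their direction in either batch. Dorsal minus central was 1.52 in batch A and 1.51 in batch B for Dynlrb2, 1.94 and 2.01 for Ccdc153, and 0.82 and 1.40 for Cfap126. Dorsal minus ventral was 0.93 and 1.09, 1.45 and 1.73, and 0.52 and 0.99 in the same order. Tested within batch A alone, these 3 genes passed against the central SCN, and Dynlrb2 and Ccdc153 passed against the ventral SCN. Within batch B alone, which holds dorsal pulsed replicate 4, the one that passed was Ccdc153 against the central SCN (adjusted p = 0.0401).

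Of all genes tested, 5.14% were higher in the dorsal than in the central SCN and 1.98% higher than in the ventral SCN, against 3 of the 6 tested members in each. The members and gene lists were chosen with earlier results of these data known, so such shares describe them and are no independent test. The dorsal arrays lay above the central arrays without overlap in both batches for 1.58% of genes and for these same 3 members. In the comparison with the ventral SCN, 0.897% of genes and no member did so. With the sham arrays alone (4 against 4 in the same fit), no member passed the test, where 1.87% of all genes did in dorsal minus central, 1.57% in dorsal minus ventral and 1.43% in central minus ventral. The dorsal minus central differences were then 0.97 (adjusted p = 0.0886) for Dynlrb2, 1.56 (0.0639) for Ccdc153 and 0.91 (0.145) for Cfap126. The unadjusted p was under 0.05 for these 3 genes and for 10.3% of all genes. When dorsal pulsed replicate 4, which enters the shared spread, was left out, the same sham differences passed with adjusted p of 0.00588, 0.0312 and 0.00168, where 3.99% of all genes passed. Dorsal minus ventral in sham still did not pass for these 3 genes, where 2.93% of all genes did. It was 0.65 (adjusted p = 0.0972) for Dynlrb2, 1.48 (0.0559) for Ccdc153 and 0.46 (0.171) for Cfap126. Central minus ventral in sham then passed for Hdc (-1.16, adjusted p = 0.0463), where 2.87% of all genes did.

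**Figure D1:**
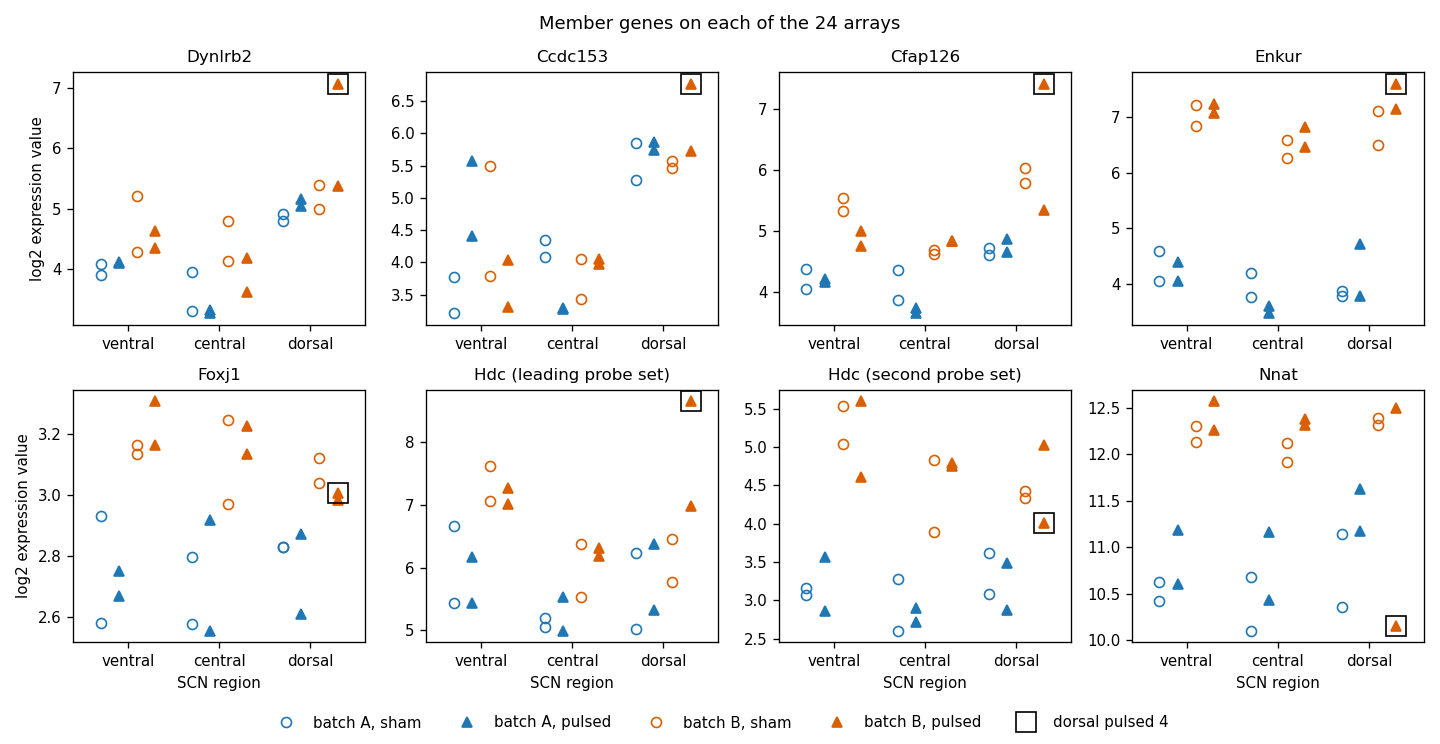
Log2 expression of each of the 7 genes, with both probe sets of Hdc, on all 24 arrays by region, treatment and batch; each point is 1 array, and dorsal pulsed replicate 4 is boxed. Dorsal arrays lie above central arrays of the same batch for Dynlrb2, Ccdc153 and Cfap126, and all Foxj1 values lie between 2.55 and 3.31.

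Enkur, the calmodulin-binding axonemal protein, was lower in the central than in the ventral SCN, and its dorsal values spanned both. In batch A the central arrays read 3.76 and 4.19 after sham and 3.47 and 3.61 after the pulse, the ventral arrays 4.06, 4.60, 4.40 and 4.06, and the dorsal arrays 3.88, 3.78, 4.71 and 3.79. In batch B the central arrays read 6.27 and 6.59 after sham and 6.46 and 6.81 after the pulse, the ventral arrays 7.22, 6.83, 7.23 and 7.07, and the dorsal arrays 7.10, 6.49, 7.14 and 7.59. Central and ventral arrays overlapped in batch A, through central sham replicate 2, and not in batch B. The central minus ventral difference was -0.54 ± 0.151 (adjusted p = 0.0379), and dorsal minus ventral was -0.12 (0.741). Dorsal minus central was 0.42 ± 0.151 (0.108), and it was called only without dorsal pulsed replicate 2 (0.52, adjusted p = 0.0234).

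Hdc, the enzyme of histamine synthesis, was read by 2 probe sets. On the leading one, the batch A values were 5.05, 5.20, 5.54 and 4.99 in the central SCN, 6.67, 5.43, 6.17 and 5.44 in the ventral and 6.24, 5.02, 6.38 and 5.33 in the dorsal SCN, sham first. In batch B they were 6.37, 5.53, 6.18 and 6.31 in the central, 7.62, 7.06, 7.27 and 7.01 in the ventral and 5.77, 6.46, 6.99 and 8.65 in the dorsal SCN. Central arrays lay below ventral arrays in batch B and overlapped them in batch A. The central level was 1.92-fold lower than the ventral level (log2 difference -0.94 ± 0.271, adjusted p = 0.0448). Dorsal minus central was 0.71 ± 0.271 (0.130) and dorsal minus ventral -0.23 (0.730), and the former was called only without dorsal pulsed replicate 2 (0.88, adjusted p = 0.0376). The second probe set read from 2.60 to 3.62 in batch A, below the filter level, and from 3.88 to 5.60 in batch B. In a fit of 25067 probe sets, each on its own, neither Hdc probe set passed in central minus ventral: the leading one was at -0.94 (adjusted p = 0.0589) and the second at -0.46 (0.406). In dorsal minus central, the same fit gave 0.71 (0.166) for the leading one and 0.14 (0.785) for the second.

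Within batches A and B, central minus ventral was -0.52 and -0.56 for Enkur and -0.73 and -1.14 for Hdc, and none of these passed within a batch. The calls for Enkur and Hdc were lost when certain single arrays were left out. Of all genes, 4.36% were lower in the central than in the ventral SCN, beside 2 of the 6 members. For Enkur this held for 11 arrays, with an adjusted p of at most 0.0994 (without central sham replicate 3): all central arrays but sham replicate 2 and pulsed replicate 4, and all ventral arrays but sham replicates 1 and 4 and pulsed replicate 2. For Hdc it held for 16 arrays, with at most 0.121 (without central sham replicate 4): all central arrays but pulsed replicate 1, all ventral arrays but replicate 2 of either treatment, dorsal pulsed replicate 1 and dorsal sham replicates 2 and 4. Dynlrb2 gained a call in this comparison without dorsal pulsed replicate 4, at -0.51 (adjusted p = 0.0277, against 0.202 with all arrays).

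Nnat, neuronatin, was among the brightest probe sets of every array, between the percentiles 94.2 and 99.8. The batch A values ran from 10.10 to 11.63 and those of batch B from 11.91 to 12.57, apart from 10.16 on dorsal pulsed replicate 4. Its dorsal minus central difference was 0.07 ± 0.276 (adjusted p = 0.923) and dorsal minus ventral -0.05 (0.947). Without that array they were 0.40 (0.0959) and 0.27 (0.423).

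Foxj1, the transcription factor of motile cilia, exceeded the filter level on 0 arrays and the array median on 0 arrays. Its single probe set read 2.55 to 2.93 on the batch A arrays and 2.97 to 3.31 on those of batch B, at percentiles 2.56 to 22.0 of all probe sets. Values this low have no order, and no difference is given.

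**Figure D2:**
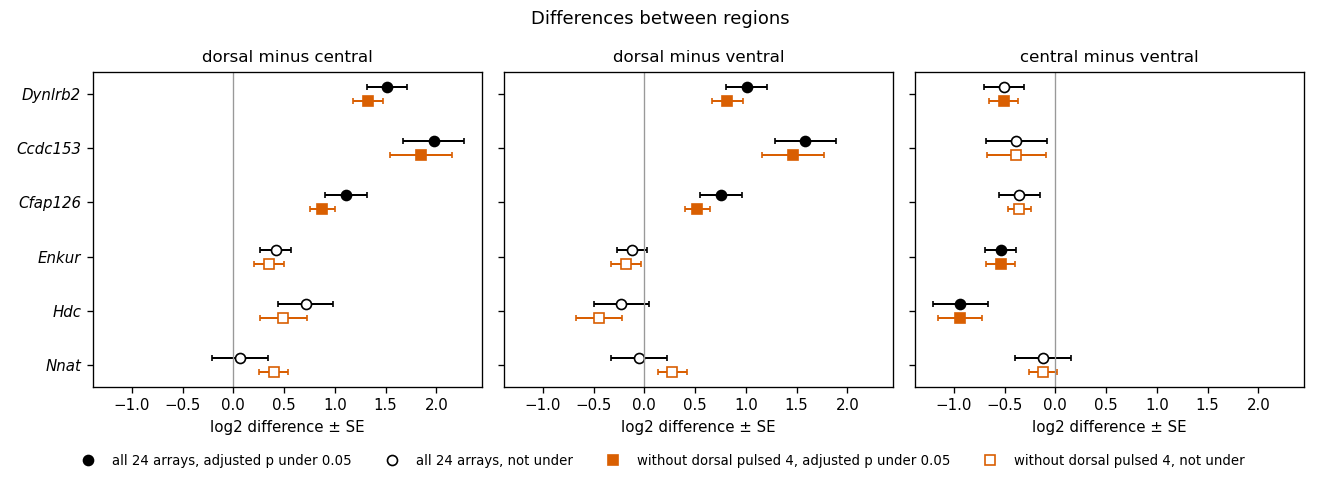
Log2 differences between regions with their SE for the 6 tested genes, with all 24 arrays (black circles) and without dorsal pulsed replicate 4 (orange squares); filled symbols have an adjusted p under 0.05. Dynlrb2, Ccdc153 and Cfap126 are filled in both comparisons with the dorsal SCN, while Enkur and Hdc are filled in central minus ventral.

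A list of 94 other motile cilia genes was read beside them, of which 83 were on the arrays and 55 were tested. In the dorsal against central comparison 42 of the 55 lay above 0, and the median was 0.19, against 0.05 over all genes. At an unadjusted p under 0.05 there were 16 (29.1%), against 19.3% of all genes. After adjustment 6 of the 55 were higher and 0 lower, where 694 of 13494 genes (5.14%) were higher and 265 lower. The higher ones include Ak7, an adenylate kinase of cilia (0.78 ± 0.129, adjusted p = 0.000354), Dnah7a, an inner arm dynein heavy chain (0.98 ± 0.179, 0.00104), Nme5, a nucleoside diphosphate kinase family protein of the axoneme (0.69 ± 0.140, 0.00245), and Fam183b (0.71 ± 0.163, 0.00713). Tekt2 and Tekt1, tektins of the axonemal microtubules, were the remaining ones, at 0.87 and 0.60. All 6 passed the test without dorsal pulsed replicate 4 too.

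Ak7 read between 6.33 and 7.01 on the dorsal, 5.58 and 6.40 on the central and 6.02 and 6.35 on the ventral arrays of batch A. In batch B the ranges were 8.90 to 9.55, 8.12 to 8.96 and 8.62 to 9.29. The lowest dorsal array lay just under the highest central array in either batch.

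Against the ventral SCN, the median of the 55 was 0.13, against -0.01 over all genes. At an unadjusted p under 0.05 there were 13 (23.6%), against 15.0% of all genes. After adjustment 4 of the 55 were higher in the dorsal SCN and 1 was lower, where 267 of 13494 genes (1.98%) were higher and 355 lower. The higher ones were Drc1, of the nexin-dynein regulatory complex (0.70, adjusted p = 0.0150), Ak7 (0.53, 0.0159), Ccdc113 (0.48, 0.0450) and Nme5 (0.49, 0.0475). The lower one was Tppp3, a tubulin polymerization protein that other cells also make (-0.63, 0.0394). Nme5 (0.0746) and Tppp3 (0.0697) did not pass without dorsal pulsed replicate 4. The count of 5 fell to 2 or 3 when 1 of 14 arrays was left out. It stayed at 4 or 5 without central pulsed replicate 2, 3 or 4, central sham replicate 3 or 4, dorsal pulsed replicate 2 or 3, dorsal sham replicate 2 or 4, or ventral pulsed replicate 1. In central minus ventral none of the 55 was called by limma, 4 had an unadjusted p under 0.05 (7.27%, against 12.9% of all genes), and the median was -0.05. Of 28 listed genes on the arrays that fell below the filter, several are core axonemal genes, among them Hydin, Spag17 and Cfap43.

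Of 9 tested regulators of multiciliated cells, Myb, a transcription factor, was lower in the dorsal than in the ventral SCN (-0.77, adjusted p = 0.000456), and none passed in dorsal minus central with all arrays. Myb passed there when dorsal pulsed replicate 4 was left out (-0.42, adjusted p = 0.0483, against 0.0754). A list of 27 tested genes held those of the primary cilium, the single nonmotile cilium of neurons, and those of transport in cilia. Of these 27, 1 was called. It was Adcy3, an adenylyl cyclase of the primary cilium. Adcy3 was lower in the dorsal SCN than in the central (-0.59, adjusted p = 0.0144) and the ventral SCN (-0.72, 0.00377). Of 9 tested subunits of cytoplasmic dynein, among them Dynlrb1, the close relative of Dynlrb2, none was called between regions.

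Markers of the ventricle wall beyond cilia were read from a list of ependymal and tanycyte genes, of which 14 were on the arrays and 8 were tested. Scn7a, a sodium channel of glia and ependymal cells that senses sodium, was higher in the dorsal SCN than in the central (0.94 ± 0.189, adjusted p = 0.00232) and the ventral SCN (1.01 ± 0.189, 0.00162). Cd24a, a surface protein of ependymal cells and of many neurons, was lower in the dorsal SCN in both (-1.36 and -1.18). The others did not pass. The tanycyte factors Rax and Lhx2, Nes, Crym, Gpr50 and Tmem212 lay below the filter. The list's mean level ran from 5.06 to 5.25 on the dorsal, 4.95 to 5.22 on the central and 5.03 to 5.31 on the ventral arrays of batch A. In batch B it ran from 5.89 to 6.35, 5.72 to 5.86 and 5.81 to 6.11. Of the choroid plexus list, 4 of 7 were tested and none was called. Its most specific gene, transthyretin (Ttr), differed by 0.17 between dorsal and central SCN (adjusted p = 0.725).

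**Figure D3:**
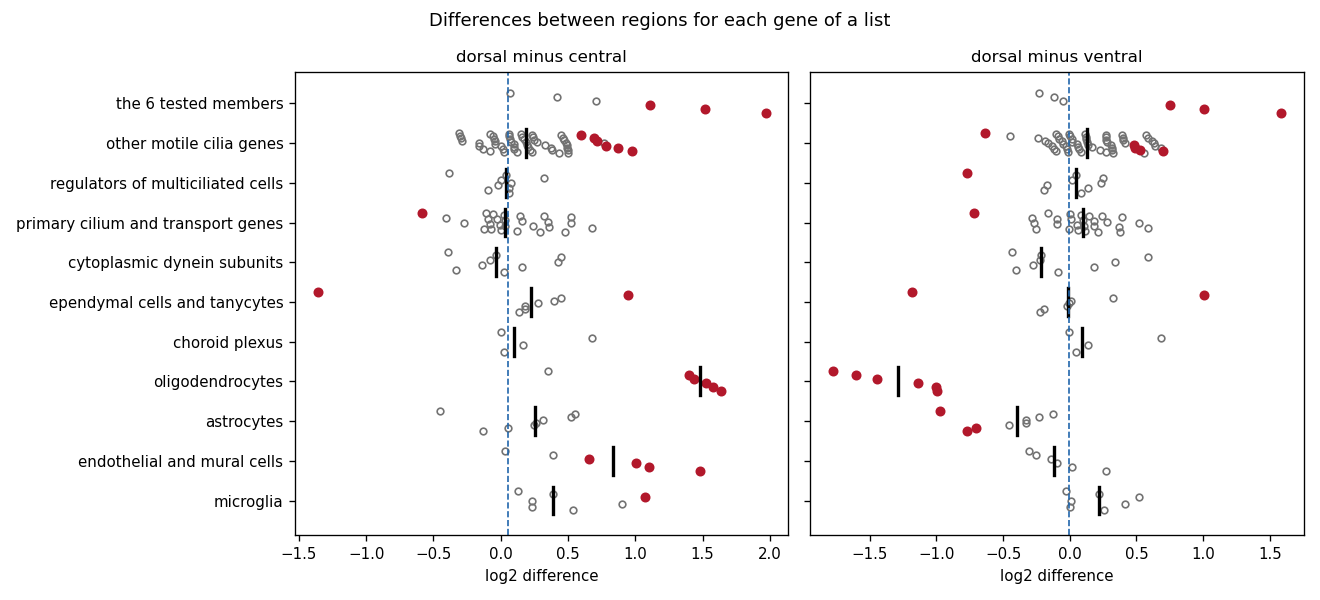
Log2 differences of the dorsal SCN from the central and from the ventral SCN for each tested gene of the 6 members and of 10 gene lists; filled red points have an adjusted p under 0.05, black bars are medians of the lists other than the members, and the dashed line is the median of all genes. The oligodendrocyte list lies to the right against the central SCN (median 1.48) and to the left against the ventral SCN (median -1.29).

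Other cell types differed between the regions as well. Of 6 oligodendrocyte genes, 5 were higher in the dorsal than in the central SCN (median 1.48), and all 6 were lower in the dorsal than in the ventral SCN (median -1.29). Those with the smallest p, genes of myelin, were Cldn11 (1.40), Mog (1.44), Mobp (1.58) and Mal (1.52) against the central, and Mog (-1.78), Mobp (-1.60), Mal (-1.45) and Cldn11 (-1.14) against the ventral SCN. The list's mean level on dorsal, central and ventral arrays ran from 6.59 to 7.12, 4.93 to 5.95 and 7.93 to 8.58 in batch A, and from 8.32 to 8.57, 6.73 to 7.28 and 9.31 to 9.77 in batch B. Of 6 endothelial and mural genes, 4 were higher in the dorsal than in the central SCN (median 0.83), Slco1a4 (1.48), Cldn5 (1.01), Rgs5 (0.65) and Vtn (1.10), and none was called against the ventral SCN. Of 8 astrocyte genes, Aqp4 (-0.77), Gfap (-0.97) and Aldh1l1 (-0.70) were lower in the dorsal than in the ventral SCN (median -0.39). None was called against the central SCN with all arrays, while Aldoc (0.80) and Slc1a2 (0.85) were higher and Gfap (-0.62) lower there without dorsal pulsed replicate 4. Csf1r, of 7 microglial genes, was higher in the dorsal than in the central SCN (1.07, adjusted p = 0.0375), and C1qb (0.53, 0.0230) was too without that array. Of 5 tested genes of neighbouring hypothalamic neurons, oxytocin (Oxt, 2.29, adjusted p = 0.00232), Trh (1.92, 4.64e-05) and galanin (Gal, 0.73, 0.00232) were higher in the dorsal than in the central SCN. Against the ventral SCN, Oxt (2.03) and Gal (0.52, adjusted p = 0.0431) were, and Gal did not pass without dorsal pulsed replicate 4 (0.50, 0.0566). The part of these cells in the levels of Dynlrb2, Ccdc153 and Cfap126 was not tested.

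In central minus ventral, where Enkur and Hdc were lower, all 6 oligodendrocyte genes (median -2.80), 4 of 6 endothelial and mural genes (median -0.94) and 5 of 8 astrocyte genes (median -0.67) were lower too. Leaving out dorsal pulsed replicate 4 brought the astrocyte count to 8 of 8 and the endothelial and mural count to 5 of 6, while the share of all genes called in either direction went from 5.2% to 8.09%. Rarres2 of the ependymal list (-0.58) and the microglial genes Aif1 (-0.54) and C1qb (-0.49) were then called lower as well. The oligodendrocyte genes with the smallest p were Mog (-3.21), Mobp (-3.18), Cldn11 (-2.54) and Mal (-2.97). The endothelial and mural genes were Slco1a4 (-1.21), Rgs5 (-0.80), Cldn5 (-1.10) and Vtn (-1.09), and the leading astrocyte genes Aqp4 (-0.64), Gja1 (-0.55), Slc1a3 (-0.39) and Aldoc (-0.88). The astrocyte list's mean level on the central and ventral arrays ran from 8.05 to 8.44 and 9.07 to 9.14 in batch A, and from 9.96 to 10.22 and 10.57 to 10.79 in batch B. Their part in the Enkur and Hdc values was not tested. Among genes that handle or sense histamine, the receptor Hrh1 was higher in the central than in the ventral SCN (0.76, adjusted p = 0.00174). Maob, an enzyme of histamine breakdown, was lower there (-0.55, 0.0311) and higher in the dorsal than in the central SCN (0.68, 0.00585). The vesicular amine transporter Slc18a2, which histamine neurons use, was higher in the dorsal SCN only without dorsal pulsed replicate 4 (0.99 against the central, adjusted p = 0.000121, and 0.90 against the ventral, 0.000414). The mast cell genes Cpa3, Cma1 and Mcpt4 lay below the filter, and Kit, a receptor that is not limited to mast cells, was lower in the dorsal SCN (-1.49 against the central).

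The light pulse changed none of the 6 genes in any region, in the average of the regions or in the test of whether its effect differs between regions (limma, adjusted p). At an unadjusted p under 0.05 there were 0 in the ventral, 0 in the central and 3 in the dorsal SCN, and 1 in the test across regions. Over all genes, 6.56%, 8.06% and 10.1% had such a p in the ventral, central and dorsal SCN, and 2.05% in the test across regions. After adjustment 0.719%, 0.385% and 0.178% of all genes were called in the ventral, central and dorsal SCN, 0.408% in the average and 0.00741% in the test across regions. Leaving out dorsal pulsed replicate 4 raised the called shares to 1.53%, 1.22% and 0.304% in the 3 regions and lowered that of the average to 0.274%, and still no member was called. In the average, the mean of pulsed replicate 4 then dropped out as a whole, with its ventral and central arrays.

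In the dorsal SCN the pulsed minus sham difference was 0.64 ± 0.281 for Dynlrb2 (adjusted p = 0.478), 0.50 ± 0.213 for Enkur (0.468) and 0.96 ± 0.383 for Hdc (0.450), the 3 with an unadjusted p under 0.05. The second Hdc probe set was at -0.02 ± 0.295 (adjusted p = 0.984, limma fit of each probe set on its own). Ccdc153 was at 0.49, Cfap126 at 0.29 and Nnat at -0.19. Leaving out dorsal pulsed replicate 4 gave differences of 0.26 for Dynlrb2, 0.24 for Ccdc153, -0.17 for Cfap126, 0.38 for Enkur, 0.52 for Hdc and 0.47 for Nnat, and Cfap126 and Nnat turned sign. The smallest adjusted p was then 0.633. By batch, Hdc differed by 0.22 in A and 1.71 in B, Dynlrb2 by 0.25 and 1.03, and Nnat by 0.65 and -1.03.

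In the ventral SCN the differences ran from -0.29 (Cfap126) to 0.28 (Nnat), and in the central SCN from -0.44 ± 0.281 (Dynlrb2, adjusted p = 0.788) to 0.37 (Nnat). Without dorsal pulsed replicate 4 the central Dynlrb2 difference had an unadjusted p of 0.0395 (limma) and an adjusted p of 0.332. Ventral Ccdc153 went opposite ways in the batches, by 1.50 in A and -0.97 in B. The confidence intervals were wide: that of dorsal Hdc ran from 0.17 to 1.76 before adjustment and that of ventral Ccdc153 from -0.62 to 1.15. For Dynlrb2 the light effect across regions had an unadjusted p of 0.0375 (0.0811 without dorsal pulsed replicate 4) and did not pass after adjustment.

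None of the 55 other motile cilia genes was called after light in any region, and 5, 4 and 2 had an unadjusted p under 0.05 in the ventral, central and dorsal SCN (9.09%, 7.27% and 3.64%, against 6.56%, 8.06% and 10.1% of all genes). Their medians were -0.09, -0.14 and -0.09, against -0.03, -0.08 and -0.03 over all genes. Fank1 was called lower in the ventral SCN when dorsal pulsed replicate 4 was left out (-0.91, adjusted p = 0.00858, against 0.257 with all arrays). Myb was then called higher in the ventral SCN (0.71, 0.0421), and Ift140, a transport protein of cilia, lower in the central SCN (-0.80, 0.0186). Blcap, the host gene of Nnat, was then called higher in the dorsal (0.64, 0.0498) and the ventral SCN (0.51, 0.0459), while Nnat itself was not. Among the other genes of the ventricle wall, Vim (1.60 ± 0.301, adjusted p = 0.00849) and Dio2 (1.27 ± 0.257, 0.0155) rose after light in the ventral SCN. Vim encodes an intermediate filament of tanycytes and reactive astrocytes, and Dio2 the deiodinase that activates thyroid hormone. The astrocyte filament gene Gfap rose there too (1.28, 0.0180) and in the dorsal SCN (1.33, 0.0319). In the central SCN, Vim (1.32, adjusted p = 0.00304) and Gfap (0.97, 0.0130) were called only without dorsal pulsed replicate 4. In the dorsal SCN 0 of the 8 tested ependymal and tanycyte genes were called, with a largest difference of 1.25. The test across regions called neither Vim, Dio2 nor Gfap (limma, unadjusted p of 0.682, 0.0548 and 0.582), so a rise limited to the ventral SCN is not shown.

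**Figure D4:**
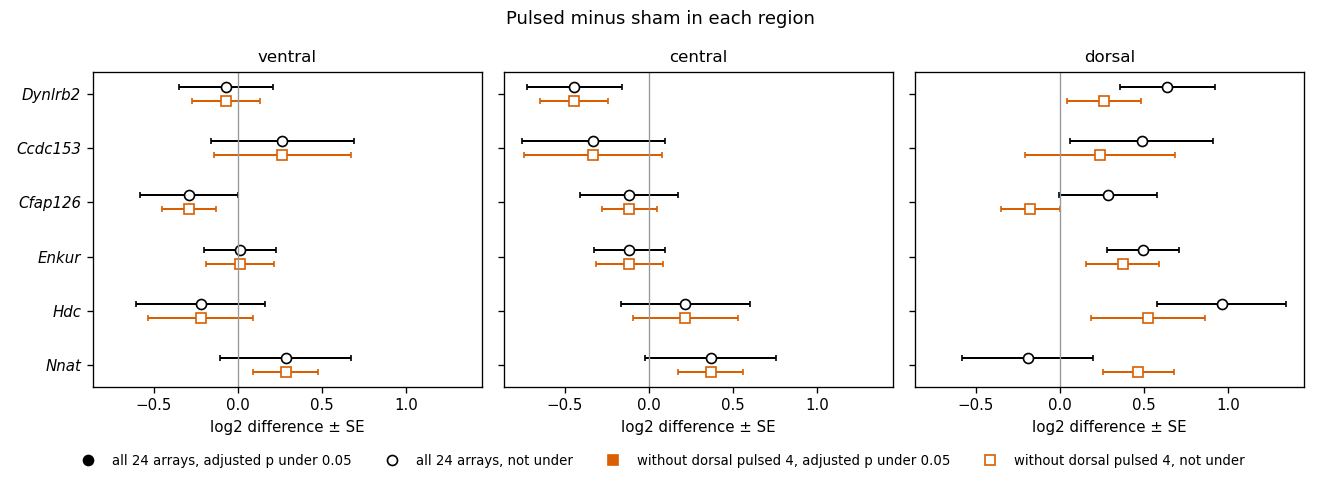
Pulsed minus sham log2 differences with their SE for the 6 tested genes in each region, with and without dorsal pulsed replicate 4. No symbol has an adjusted p under 0.05, and in the dorsal SCN Nnat moves from -0.19 to 0.47 and Hdc from 0.96 to 0.52 when that array is left out.

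Dorsal pulsed replicate 4 read most members high and Nnat low. Set against the mean of the other 3 dorsal arrays of batch B, it was higher by 1.82 for Dynlrb2, 1.18 for Ccdc153, 1.70 for Cfap126, 0.68 for Enkur and 2.25 for Hdc. For Nnat the difference was -2.24. Of all tested genes, 4.22% were displaced upwards further than Dynlrb2, 1.91% further than Hdc and 3.45% downwards further than Nnat. The second Hdc probe set went the other way (-0.58). Of the other motile cilia genes, 35 of 55 were above the other arrays (median 0.33, from -2.59 to 2.73), against 6887 of 13494 genes (median 0.02). The ependymal and tanycyte list had 6 of 8 above (median 0.51), and cytoplasmic dynein subunits had a median of -1.64. The part of the high Gapdh 3′ to 5′ difference of this array in these values was not tested.

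Dynlrb2, Ccdc153 and Cfap126 varied together over the 24 arrays once each batch was centred. Pearson's r was 0.902 between Dynlrb2 and Cfap126, 0.854 between Dynlrb2 and Ccdc153 and 0.807 between Ccdc153 and Cfap126. With dorsal pulsed replicate 4 left out, these were 0.836, 0.827 and 0.794. The arrays share regions and batches, so the values only describe likeness, and no p is given. Enkur correlated with these 3 between 0.330 and 0.533, and between 0.189 and 0.399 without that array. Hdc correlated with Enkur at 0.609 (0.509 without it), with Dynlrb2 at 0.571 (0.332), with Cfap126 at 0.574 (0.277) and with Ccdc153 at 0.330 (0.107). Nnat was negatively related to each other tested member with all arrays (from -0.056 to -0.483), and positively to all but Hdc (-0.066) without that array, as with Dynlrb2 (0.424) and Ccdc153 (0.517).

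The genes most like the mean of the tested cilia members were Rasd2 (r = 0.878), Gng13 (0.875), Ogfrl1 (0.874), Haus3 (0.864) and Pttg1 (0.863). Without dorsal pulsed replicate 4 a different 5 led: Calcr (0.888), Smoc1 (0.883), Lgals3bp (0.882), Krt222 (0.862) and Gria3 (0.860). Those most like Hdc were Elovl1 (0.870), Cpt1a (0.839) and Sox10, a factor of oligodendrocytes (0.838), and Elovl1 led without that array too (0.806). For Nnat they were Tro (0.933), Syt13 (0.925) and Tspan31 (0.915), and Srrm4 led without it (0.866).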

How the data were processed

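The table deposited by the authors gives log2 expression values of 45101 probe sets for 24 Affymetrix arrays, 1 array a sample. Per the submitters' processing notes GCRMA 2.32.0, R 3.0.2 and MAS5 were used, with no role given. The normalization between batches is not stated in the labels. GEO's platform annotation gave 1 symbol for 34945 probe sets and several for 932 (not named). A RefSeq gene table changed 0 symbols. The probe set with the highest mean led each gene, and 13494 of 18193 genes exceeded a log2 value of 4 on at least 4 arrays.

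The tests used limma 3.58.1 under R 4.3.3 (two-sided moderated tests from lmFit and eBayes, Benjamini-Hochberg over 13494 genes), with 6 group means and a batch term on all 24 arrays (17 residual and 4.70 prior degrees of freedom). The effect of light averaged over regions was fitted on 8 means over the 3 regions of 1 treatment and replicate number. Where an array was left out, the mean that held it was left out as a whole. The fit was also run on simulated data with independent noise on each array. That cannot test the p-values for arrays that may share animals. The number of arrays limits the precision. No 2 arrays held identical values.

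The members, gene lists and tests were chosen with earlier results of these data known. All 7 members are named. From each other list, all called genes are named if 4 or fewer, otherwise the 4 with the smallest p, with others named after their values were seen. Neighbours are the 5 genes of highest correlation with the mean of the cilia members and the 3 of highest correlation with Hdc and with Nnat. Other SCN, partner and mast cell lists served as marker checks.

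Same-numbered arrays of 1 batch correlated in their deviations from group means at 0.209 to 0.623 (batch A) and 0.0960 to 0.460 (batch B). The pairs of light against sham were not all over 0.1, while those of regions within a treatment were, which met the bar for pairing there. The tests above have no block, and a block by replicate number is an alternative. Alternatives were normalization, filter, probe set choice, batch, array weights, blocks and leaving out each array.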

Additional observations from a re-analysis of the deposited data

Results flagged for a closer look

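Of 42 groups of 4 arrays tested for an array far from the others, after centring within batches, 2 had one, where chance gives about 1 in 20. Nnat on dorsal pulsed replicate 4 read 10.2, while the other array of its group and batch read 12.5, and its gap to the nearest array was 0.838 of the group's range. Foxj1 on dorsal pulsed replicate 1 read 2.87, where the other array of its batch read 2.61, with a gap of 0.912 of the range, at a level below the filter where values have no order.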

How the results depend on the processing

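Over the 8 called results of single members, 282 values under alternatives kept their direction, and 66 no longer passed the test. The 34 results not called gave 1179 values, of which 53 turned sign (in 15 results) and 3 passed, all 3 named in the text. In no region or average was a member called for light, under any alternative run. The count of members in central minus ventral (2) was 0 with arrays centred on their median, every probe set on its own, no batch term, sham arrays only or within batch A or B, 1 without a filter or with quantile normalization, and 0 to 3 when single arrays were left out. In dorsal minus central (3) it was 1 without a batch term or within batch B, 0 with sham arrays only, and 3 to 5 when single arrays were left out. In dorsal minus ventral (3) it was 0 without a batch term, with sham arrays only or within batch B, and 2 to 3 without single arrays. A filter of 6 left Dynlrb2, Ccdc153 and Cfap126 out, which gave 0 for both comparisons with the dorsal SCN. The list of other motile cilia genes gave, in dorsal minus central (6), 10 with array weights, 0 without a batch term or with sham arrays only, 1 within batch A or B, and 5 to 8 without single arrays. In dorsal minus ventral (5) it gave 10 with array weights, 2 with every probe set on its own, 0 without a batch term, with sham arrays only or within batch A or B, and 2 to 5 without single arrays. In central minus ventral it gave 1 with array weights, and for ventral light 4 with array weights and 0 to 1 without single arrays. The cause was not tested. A replicate block in place of the batch changed no call of a member, nor did a block by treatment, chosen after seeing the data. With the block by treatment the list count in dorsal minus ventral was 9 and in dorsal minus central 9, against 6 and 8 with the replicate block. The values lie near background for Foxj1 and for the second Hdc probe set in batch A. Dynlrb2 and Ccdc153 were under the filter level on some central and ventral arrays. Cfap126 was so on some central arrays, and Enkur on some central and dorsal arrays of batch A.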
